A study of Mus musculus with 24 samples.

Results

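The 10 genes described here encode the mouse receptors of bone morphogenetic proteins (BMPs), the Smad proteins that carry or dampen their signal, and the pseudoreceptor Bambi. They were taken by gene symbol (Bmpr1a, Bmpr1b, Acvr1, Bmpr2, Smad1, Smad5, Smad9, Smad6, Smad7 and Bambi) out of 48321 gene symbols in the deposited counts. RNA was sequenced from GFP-positive cells, labelled hippocampal stem cells, which had been sorted out of hippocampi of adult mice of the strain C57BL/6. All animals carried Hes5::CreERT2, a tamoxifen-inducible Cre recombinase under control of the Notch target Hes5, together with the GFP reporter Rosa26R-CAG::GFP. The conditional knockout (CKO) animals were in addition Notch2 flox/flox, and the wild-type (WT) animals Notch2 wt/wt. Both received tamoxifen for 5 days, and cells were collected 1 day later. There were 3 pools of animals per genotype, 2 libraries per pool and 2 sequencing lanes per library, and the pool was the replicate.

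BMPs bind complexes of type I and type II serine/threonine kinase receptors, in which the type II receptor phosphorylates the type I receptor. The activated type I receptor phosphorylates the receptor-regulated Smads (Smad1, Smad5 and Smad9), which enter the nucleus with Smad4 and regulate target genes such as those of the Id family. Smad6 and Smad7 inhibit this relay, and Bambi resembles a type I receptor but lacks the kinase domain. In the adult hippocampus, BMP signalling is known for holding neural stem cells in quiescence, and Notch signalling is likewise known for maintaining them.

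Promoter sequence is shown for Bmpr1b and Smad6, which are 2 of the 3 genes with an unadjusted p under 0.05 below, and for Smad9, which, like Bmpr2, has both a BMP-Smad and a Notch-type motif in its window, and whose window lies outside annotated exons. Each sequence is the 250 bases before a RefSeq start on GRCm38.p6, printed 5′ to 3′ on the gene's own strand, with motif matches in capitals. The windows are chr3:141982265-141982514 (minus strand, Bmpr1b, a start inside the annotated gene body), chr9:64022060-64022309 (minus strand, Smad6) and chr3:54755332-54755581 (plus strand, Smad9), and none of them holds a GENCODE exon base.
Bmpr1b: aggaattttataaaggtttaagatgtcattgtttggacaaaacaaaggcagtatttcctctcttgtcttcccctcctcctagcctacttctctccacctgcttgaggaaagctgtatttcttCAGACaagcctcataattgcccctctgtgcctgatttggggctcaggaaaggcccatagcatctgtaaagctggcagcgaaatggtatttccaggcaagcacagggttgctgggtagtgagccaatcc
Smad6: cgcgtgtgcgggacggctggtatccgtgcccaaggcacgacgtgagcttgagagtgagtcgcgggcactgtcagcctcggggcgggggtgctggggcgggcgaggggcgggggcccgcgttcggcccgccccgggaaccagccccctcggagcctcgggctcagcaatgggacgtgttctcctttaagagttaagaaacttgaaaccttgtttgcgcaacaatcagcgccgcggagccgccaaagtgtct
Smad9: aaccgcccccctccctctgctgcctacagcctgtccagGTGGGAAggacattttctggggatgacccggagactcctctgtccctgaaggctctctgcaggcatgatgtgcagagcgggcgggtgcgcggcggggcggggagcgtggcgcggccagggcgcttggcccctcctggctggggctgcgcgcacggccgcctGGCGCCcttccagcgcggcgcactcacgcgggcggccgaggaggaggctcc

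The first motif searched was GGCGCC, the GC-rich element bound by BMP-activated Smads, which reads the same on both strands. The next was CAGAC, a Smad binding element, which was also sought on the other strand as GTCTG. The last was GTGGGAA, a sequence recognised by the Notch effector Rbpj, which was also sought on the other strand as TTCCCAC. The printed Bmpr1b window, 1 of 3 for that gene, holds 1 CAGAC and neither of the other motifs. The Smad6 window holds none of the 3, and the Smad9 window holds 1 GGCGCC and 1 GTGGGAA. No printed match overlaps another. Among 32851 RefSeq windows of the same length, 9.586% hold GGCGCC, 42.194% CAGAC and 5.415% GTGGGAA. RefSeq windows were read for 8 of the 10 genes. Windows on chromosome 18 were not read for the 10 genes, which left out Smad7 and Bambi, so nothing is said of their promoters. The Bmpr2 window also holds 1 GGCGCC and 1 GTGGGAA but lies in exons throughout. Of the listed Smad5 starts, the last has 1 GTGGGAA and 1 CAGAC, and the middle one has 1 GGCGCC, as has the Bmpr1a window. Of the Bmpr1b windows not printed, 1 holds GTCTG and the other holds no match. These matches describe the letters only.

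Reads in genes numbered 40366579 to 53984963 per pool. Levels are read counts scaled to a common library size (CPM) after adjustment by TMM, a scaling that assumes most genes unchanged, and 1 read was worth 0.0175 to 0.0265 CPM. Notch2, the deleted gene, had 99.3, 146 and 303 CPM in WT pools 1 to 3 and 65.3, 116 and 121 CPM in CKO pools 1 to 3, so the genotypes overlapped. Which Notch2 exons are floxed is not given in the sources used here, and reads from the remaining exons count too. All 8 stem cell and astrocyte markers were detected in every pool, at 7231 to 19875 CPM in sum, but the 5 oligodendrocyte markers reached 1557 to 4930 CPM, so the pools were not stem cells alone. In such bulk samples, fewer cells of a type and less RNA per cell cannot be told apart. WT pool 3 stood apart: its mean correlation with the other pools was 0.869 (log2(CPM + 1), across genes) against 0.905 to 0.932 for the others. Its label carries a tag of 2 K where the other pools carry 4 K to 20 K, and what this tag counts is not given in the sources used here. It was the highest pool for 4 and the lowest for 3 of the 10 genes, so the genotype difference of each of the 10 genes and their levels per length are also given without it.

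Bmpr1b and Bmpr1a led the group in level, and the inhibitory Smads came last. Per kilobase of merged exons, the mean CPM over the 6 pools was 13.5 ± 4.18 (SD, n = 6) for Bmpr1b, 7.21 ± 1.83 for Bmpr1a, 4.23 ± 4.68 for Bambi, 4.23 ± 2.06 for Acvr1 and 3.79 ± 2.12 for Smad5. Smad1 followed at 2.86 ± 0.836 CPM per kilobase, Bmpr2 at 1.66 ± 0.828, Smad9 at 1.25 ± 0.952, Smad7 at 0.697 ± 0.520 and Smad6 at 0.343 ± 0.472. Bmpr1b exceeded Bmpr1a in 5 of 6 pools, and Bmpr1a exceeded Bambi in 5 of 6. Smad1 exceeded Bmpr2, and Smad7 exceeded Smad6, in 5 of 6 pools each. The neighbours Bambi and Acvr1 (3 of 6), Acvr1 and Smad5 (2 of 6), Smad5 and Smad1, Bmpr2 and Smad9, and Smad9 and Smad7 (4 of 6 each) were not separated beyond the spread of the pools.

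The place of Bambi in this order differed between genotypes, and its rank of 3 over the 6 pools depended on WT pool 3. By pool it had 3.22, 3.91 and 13.5 CPM per kilobase in WT and 1.89, 0.955 and 1.88 in CKO pools. In WT pool 1 it came next after Bmpr1b and Bmpr1a, and in WT pool 2 after these and Smad5. Its mean was 6.89 CPM per kilobase in WT, near the 7.54 of Bmpr1a, and 1.57 in CKO pools, below the 1.96 of Bmpr2. The order was also taken over the 5 pools other than WT pool 3, a choice made after the data were seen. There Bambi stood at 2.37 ± 1.18 CPM per kilobase (SD, n = 5), below Smad5 (4.45 ± 1.54), Acvr1 (3.43 ± 0.756) and Smad1 (2.61 ± 0.628). These 5 pools hold more CKO than WT pools, so this mean also leans towards the lower CKO values. Bmpr1b (14.4 ± 4.02) and Bmpr1a (6.54 ± 0.859) still came first, and Bmpr2 (1.95 ± 0.449), Smad9 (1.40 ± 0.981), Smad7 (0.788 ± 0.525) and Smad6 (0.403 ± 0.501) last.

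**Figure D1:**
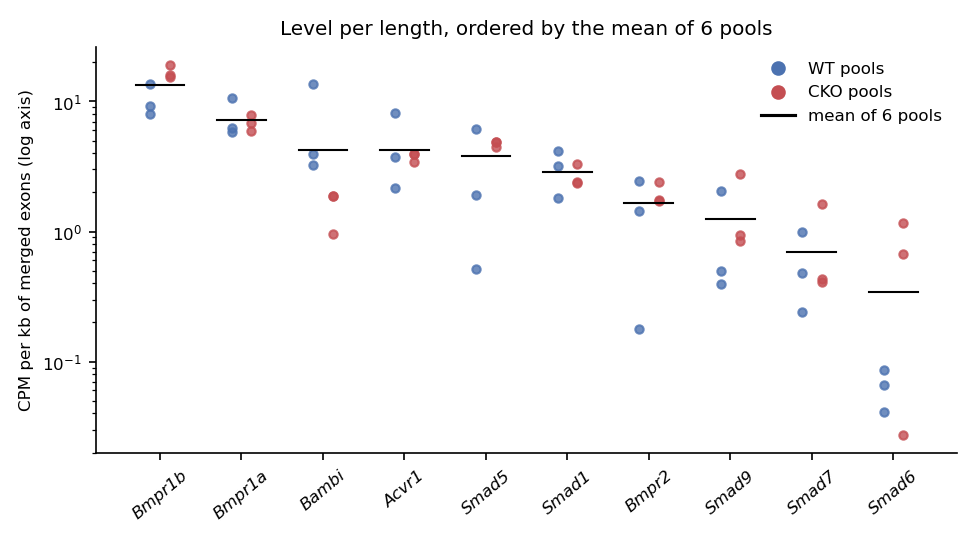
Level of each of the 10 genes in CPM per kilobase of merged exons (log axis), 1 point per pool, WT and CKO in different colours, ordered by the mean of 6 pools. Bmpr1b and Bmpr1a lie highest, Smad7 and Smad6 lowest, and the points of most neighbours intermingle.

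Across all 21477 genes tested with edgeR's quasi-likelihood test, 0.0% passed a Benjamini-Hochberg adjusted p under 0.05, and 0 of the 10 genes did. At an unadjusted p under 0.05, 5.91% of all genes passed (3.01% higher and 2.9% lower in CKO), and 3 of the 10 genes did: Bmpr1b and Smad6 with higher and Bambi with lower values. DESeq2, a second count test, gave an unadjusted p under 0.05 for 9.33% of all genes and for the same 3 of the 10. WT and CKO pools were fully separated for 15.8% of all genes (7.67% higher and 8.17% lower in CKO) and for 2 of the 10, Bmpr1b and Bambi. Of the log2 fold changes (CKO over WT) of the 10 genes, 6 were above 0, with a median of 0.53, against 10140 of 21477 and a median of -0.06 over all genes.

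**Figure D2:**
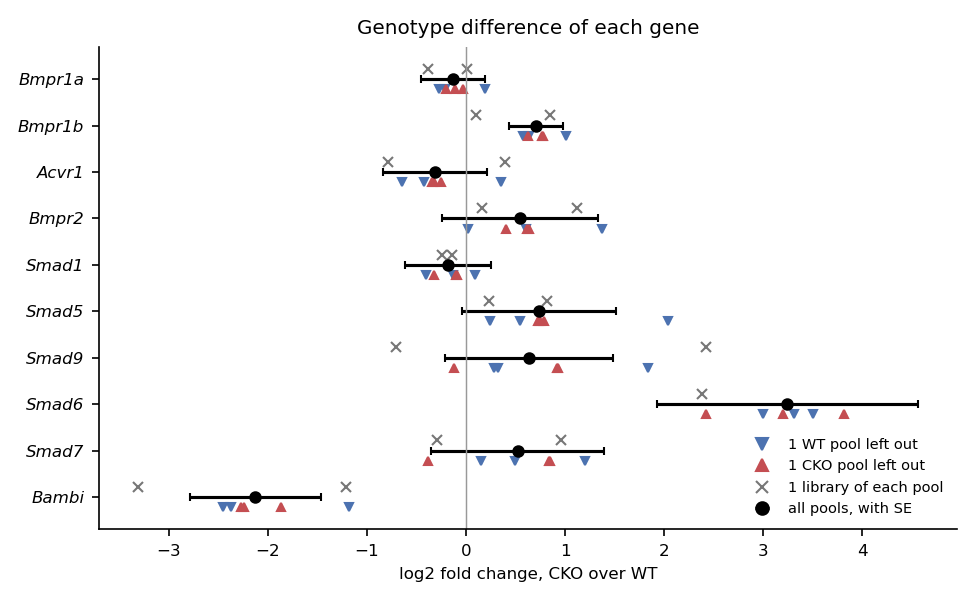
Log2 fold change of each of the 10 genes, CKO over WT, from the edgeR fit, with the zero line marking equal levels. The bar gives 1 standard error, derived from the F statistic of the test. Bambi lies lowest at -2.13 and Smad6 highest at 3.24, with the widest bar.

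Among the type I receptors, Bmpr1b (chromosome 3, 141837136 to 142169425, minus strand) had 48.0, 80.8 and 54.6 CPM in WT pools 1 to 3 and 113, 91.5 and 95.3 CPM in CKO pools 1 to 3. Every CKO pool was above every WT pool. The means were 61.1 ± 17.3 and 99.8 ± 11.3 CPM (SD, n = 3 each). The log2 fold change of 0.71 (SE 0.27) had an edgeR p of 0.0356 before and 0.790 after adjustment and so missed the threshold, and the exact two-sided permutation p was 0.1, the smallest that 3 against 3 pools allow. By library the separation was not kept: library 1 alone gave 0.10 and library 2 alone 0.85, and the genotypes overlapped within each. CKO pool 2 had 615 reads in library 1 and 3463 in library 2, and CKO pool 3 had 981 and 3863. Without WT pool 3 it was 0.63 (edgeR unadjusted p = 0.0751), and leaving out single pools gave 0.58 (WT pool 1) to 1.01 (WT pool 2).

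Bmpr1a (chromosome 14, 34410734 to 34503341, minus strand), the type I receptor most studied in adult hippocampal stem cells, had 36.9, 39.4 and 67.3 CPM in WT and 43.5, 37.7 and 50.2 CPM in CKO pools. The genotypes overlapped, with WT pool 3 highest. The log2 fold change was -0.13 (SE 0.33, edgeR adjusted p = 0.931), and without WT pool 3 it was 0.19. It was the steadiest of the 10 genes, with a 1.82-fold range from the lowest to the highest pool. Part of its exons (290 bases) is shared with the antisense gene Gm17110, and the libraries do not mark strand.

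Acvr1 (chromosome 2, 58388644 to 58567157, minus strand), also known as Alk2, had 10.3, 18.1 and 39.6 CPM in WT and 19.04, 16.4 and 19.1 CPM in CKO pools. The CKO pools lay inside the WT range, and the log2 fold change was -0.32 (SE 0.53, edgeR adjusted p = 0.892). The high value of WT pool 3 came from library 1, with 1476 reads (95.6 CPM) against 18 reads (0.897 CPM) in library 2. Without WT pool 3 the log2 fold change was 0.36.

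Within the type I receptors, Bmpr1b made up 50.3%, 57.7% and 32.8% of the summed CPM per kilobase in WT pools and 63.7%, 62.2% and 57.4% in CKO pools. Bmpr1a made up 36.3%, 26.4% and 37.9% in WT and 23.0%, 24.0% and 28.4% in CKO pools. The ratio of Bmpr1b to Bmpr1a levels per kilobase was 1.38, 2.18 and 0.864 in WT and 2.76, 2.59 and 2.02 in CKO pools, and it overlapped. WT pool 3 was the one pool in which Bmpr1a exceeded Bmpr1b.

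Bmpr2 (chromosome 1, 59763400 to 59879014, plus strand), the type II receptor, had 25.8, 43.8 and 3.21 CPM in WT and 30.9, 31.6 and 43.4 CPM in CKO pools. WT pool 3 was more than an order of magnitude below WT pool 2, and both of its libraries were low, with 65 and 56 reads. The CKO pools lay within the WT range. Its log2 fold change was 0.54 (SE 0.79, edgeR adjusted p = 0.880). It was 0.021 without WT pool 3 and 1.37 without WT pool 2, and 1.12 in library 1 against 0.16 in library 2. Bmpr2 and Smad9 hold stretches of at least 100 bases that are at least 85% identical to parts of 591 and 890 other genes, so reads of those stretches are uncertain.

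**Figure D3:**
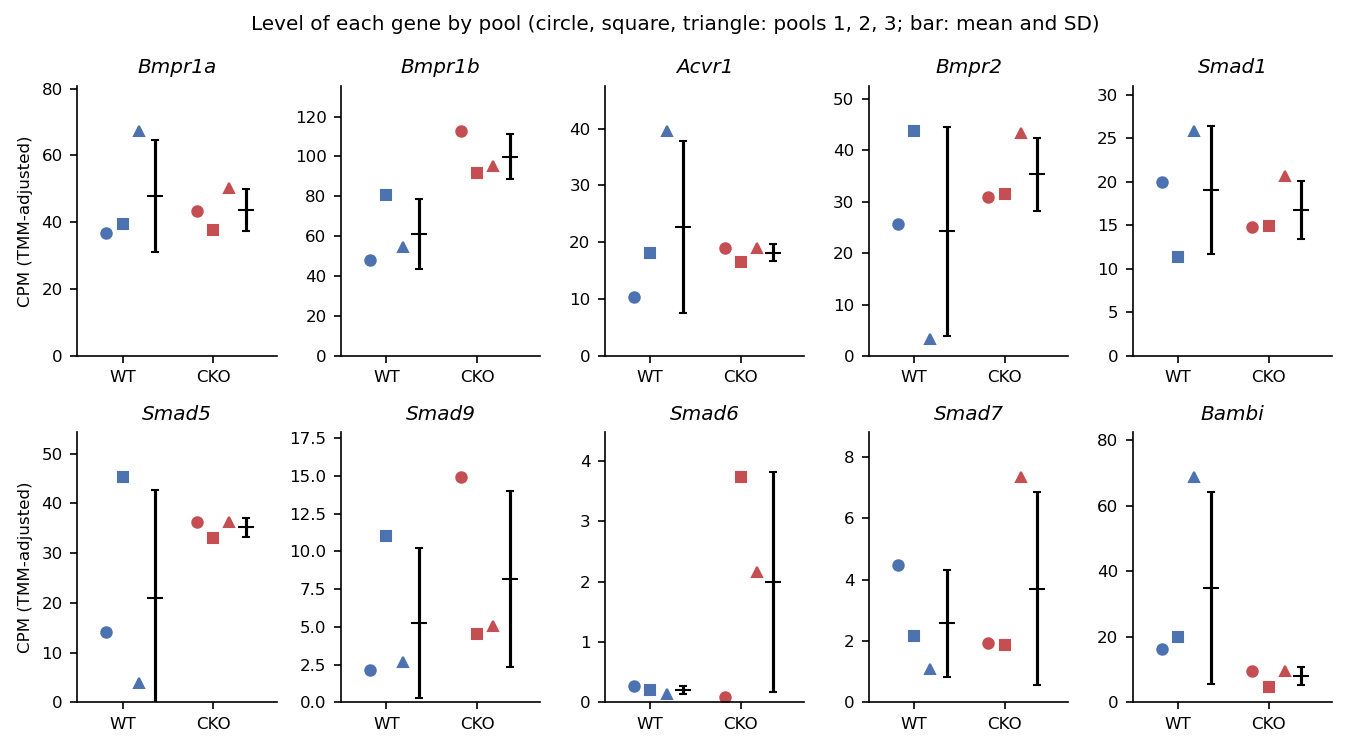
CPM (TMM-adjusted, linear axes from 0) of each of the 10 genes in the 3 WT and 3 CKO pools, with the symbol giving the pool number and the bar the mean and SD, which for Smad5 in WT is drawn only down to 0. Bmpr1b is higher and Bambi lower in every CKO pool than in any WT pool, while the other 8 genes overlap.

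Of the receptor-regulated Smads, Smad5 (chromosome 13, 56703010 to 56742377, plus strand) had 14.2, 45.2 and 3.81 CPM in WT and 36.2, 33.0 and 36.3 CPM in CKO pools. The CKO pools were close to each other (35.2 ± 1.89 CPM, SD, n = 3), whereas the WT pools (21.1 ± 21.5 CPM) spanned an 11.8-fold range that included them. The log2 fold change was 0.74 (SE 0.78, edgeR adjusted p = 0.843). It was 0.25 without WT pool 3 and 2.04 without WT pool 2. Like Bmpr2, Smad5 was lowest in WT pool 3 and highest in WT pool 2, and its reads in WT pool 3 were few in both libraries (66 and 78). Gm44252 is 88.3% identical to Smad5 over 350 bases, and Gm27301 shares 100 of its exon bases, so some reads may have been split between them.

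Smad1 (chromosome 8, 79338395 to 79399518, minus strand) had 20.04, 11.3 and 25.9 CPM in WT and 14.8, 15.0 and 20.7 CPM in CKO pools. The CKO pools lay inside the WT range, at a log2 fold change of -0.18 (SE 0.43, adjusted p in edgeR 0.928), which was 0.093 without WT pool 3. Smad9 (chromosome 3, 54755582 to 54801257, plus strand), the least abundant of the 3, had 2.12, 11.0 and 2.65 CPM in WT and 14.9, 4.53 and 5.06 CPM in CKO pools. One pool per genotype was high, WT pool 2 and CKO pool 1, and the genotypes overlapped. Its log2 fold change was 0.63 (SE 0.85, edgeR adjusted p = 0.868), with -0.13 without CKO pool 1, 1.83 without WT pool 2 and 0.32 without WT pool 3. It was -0.71 in library 1 and 2.42 in library 2. CKO pool 1 had 160 and 689 reads of it in its libraries, and WT pool 2 had 387 and 80.

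The makeup of these Smads differed between WT pools. Smad1 accounted for 58.1%, 18.2% and 80.4% of their summed CPM per kilobase in WT pools and for 23.6%, 31.1% and 36.1% in CKO pools. Smad5 accounted for 34.7%, 61.2% and 10.01% in WT and for 48.7%, 57.9% and 53.6% in CKO pools. Smad5 was thus the leading Smad in all 3 CKO pools and in WT pool 2, and Smad1 in WT pools 1 and 3.

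**Figure D4:**
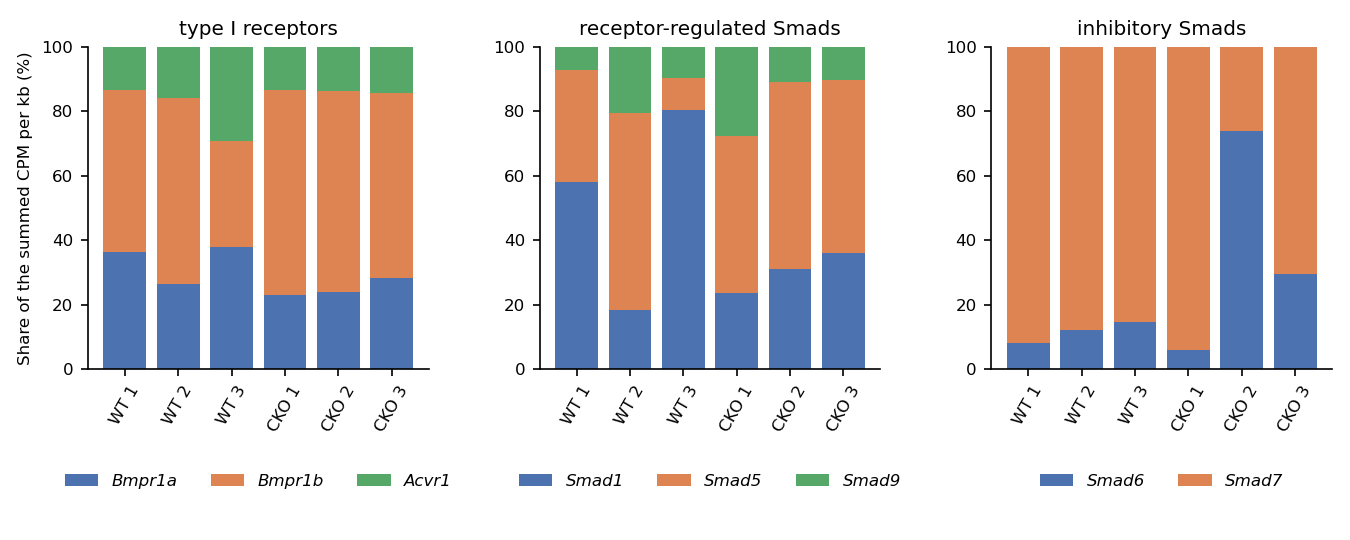
Share (%) of each gene in the summed CPM per kilobase of its class, 1 bar per pool, for type I receptors, receptor-regulated Smads and inhibitory Smads. Smad1 takes 18.2% to 80.4% of its class in the WT pools and 23.6% to 36.1% in the CKO pools.

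The inhibitory Smads were scarce. Smad6 (chromosome 9, 63953076 to 64022059, minus strand), which interferes with the Smads of the BMP branch, had 0.277, 0.212 and 0.132 CPM in WT pools, that is 14, 9 and 5 reads. In CKO pools it had 0.0877, 3.72 and 2.16 CPM, from 5, 166 and 110 reads. CKO pools 2 and 3 were above all WT pools and CKO pool 1 was below them. The log2 fold change was 3.24 (SE 1.32), with an edgeR p of 0.0431 before and 0.790 after adjustment and an exact permutation p of 0.4. It thus describes 2 of 3 CKO pools. Without WT pool 3 it was 2.997 (edgeR unadjusted p = 0.103), and without CKO pool 2 it was 2.42 (0.144). Both libraries of CKO pools 2 and 3 held more Smad6 reads than any WT library (65 and 101 in pool 2, 94 and 16 in pool 3, against 0 to 14). The sum of 5 ependymal and choroid plexus markers was 2.74 and 1.87 CPM in CKO pools 2 and 3 against 0.165 to 0.371 CPM in the other pools. Kl was the largest part of it, with 1.59 and 1.30 CPM in those pools. Of these 5 markers, none had 3 reads in every pool, and Ttr had 0.852 and 0.0393 CPM there and 0 elsewhere. Foxj1, Ccdc153 and Tmem212 were each, in at least 1 of those pools, below a WT pool. The part of these markers in the Smad6 values was not tested.

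Smad7 (chromosome 18, plus strand), an inhibitor of both the BMP and the TGF-beta branch, had 4.49, 2.17 and 1.09 CPM in WT and 1.95, 1.86 and 7.34 CPM in CKO pools. The genotypes overlapped, and the log2 fold change was 0.52 (SE 0.87, edgeR adjusted p = 0.893). The high value of CKO pool 3 came from library 1, with 359 reads against 14 in library 2. Without that pool the log2 fold change was -0.38, without WT pool 1 it was 1.21, and without WT pool 3 it was 0.15.

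Bambi (chromosome 18, plus strand), itself induced by BMP and TGF-beta signalling in other settings, had 16.3, 19.8 and 68.7 CPM in WT and 9.58, 4.85 and 9.54 CPM in CKO pools. Every CKO pool was below every WT pool, and WT pool 3 was far above the other two. The means were 35.0 ± 29.3 and 7.99 ± 2.72 CPM (SD, n = 3 each). The log2 fold change of -2.13 (SE 0.66) had an edgeR p of 0.0143 before and 0.790 after adjustment, and the exact two-sided permutation p was again 0.1. Without WT pool 3 the log2 fold change was -1.18 (edgeR p = 0.0342 before and 0.576 after adjustment).

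The separation of Bambi was seen in each library on its own. In library 1 it had 16.2, 25.1 and 111 CPM in WT and 5.21, 0.591 and 9.41 CPM in CKO pools. In library 2 it had 15.2, 13.5 and 44.0 CPM in WT and 13.3, 8.41 and 9.52 CPM in CKO pools, so that the nearest pools, WT 2 and CKO 1, were almost level. Library by library, the log2 fold change was -3.31 from library 1 (edgeR unadjusted p = 0.0227) and -1.21 from library 2 (edgeR unadjusted p = 0.0831). Such separation in both libraries in the same direction occurred for 1.59% of all genes tested (0.75% lower in CKO), and among the 10 genes for Bambi alone.

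The processed pseudogene Bambi-ps1 (chromosome 2, 122466935 to 122467526), is 88.9% identical to Bambi over 596 aligned bases and had 11.7, 3.87 and 9.35 CPM in WT and 2.12, 8.39 and 4.80 CPM in CKO pools. The genotypes overlapped for Bambi-ps1. In all, 6 other genes hold stretches of at least 100 bases that are at least 85% identical to parts of Bambi. In every pool 0.0% of reads were set aside as aligned to several places, so reads of those stretches are uncertain. With the reads of Bambi and Bambi-ps1 summed, an alternative added after the data were seen, the levels were 28.1, 23.7 and 78.0 CPM in WT and 11.7, 13.2 and 14.3 CPM in CKO pools. These did not overlap either, and the log2 fold change became -1.72 (SE 0.52, adjusted p in edgeR 0.790). Of 4 fibroblast markers, Col1a2 and Lum were lower in every CKO pool than in any WT pool (8.17% of all genes were). Lum was almost level between WT pool 1 (2.91 CPM) and CKO pool 1 (2.53 CPM). Col1a2 had 29 and 53 reads in WT pools 1 and 2 and 17 to 23 in CKO pools. The other markers overlapped: the WT and CKO means were 5.04 and 2.23 CPM for Dcn, and 2.59 and 9.21 CPM for Col1a1, which went the other way. The fibroblast list summed to 10.8 to 32.8 CPM in WT and 4.87 to 18.5 CPM in CKO pools. In other marker lists, Hopx (stem cell and astrocyte) and C1ql1 (oligodendrocyte precursor) were also lower in every CKO pool, and Sox11 (neuroblast) and Gad1 (interneuron) were higher. The part of these markers in the Bambi values was not tested.

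The 2 libraries of a pool often disagreed. Of 56 pairs of libraries with over 3 reads in both, 30 were over 2-fold and 13 over 4-fold apart. The same shares over all genes were not computed. The median fold between the libraries of a pool was 1.59 for Bmpr2, 1.74 for Bmpr1a, 2.01 for Smad1, 2.19 for Bambi and 2.25 for Smad5. It was 2.43 for Bmpr1b, 2.47 for Acvr1, 3.01 for Smad7, 4.15 for Smad6 (2 pairs) and 4.68 for Smad9. Over all genes tested it was 1.71, and over those at a mean log2 CPM of 4 to 7 it was 1.59. Between lanes, counts of 1 library agreed within sampling noise.

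**Figure D5:**
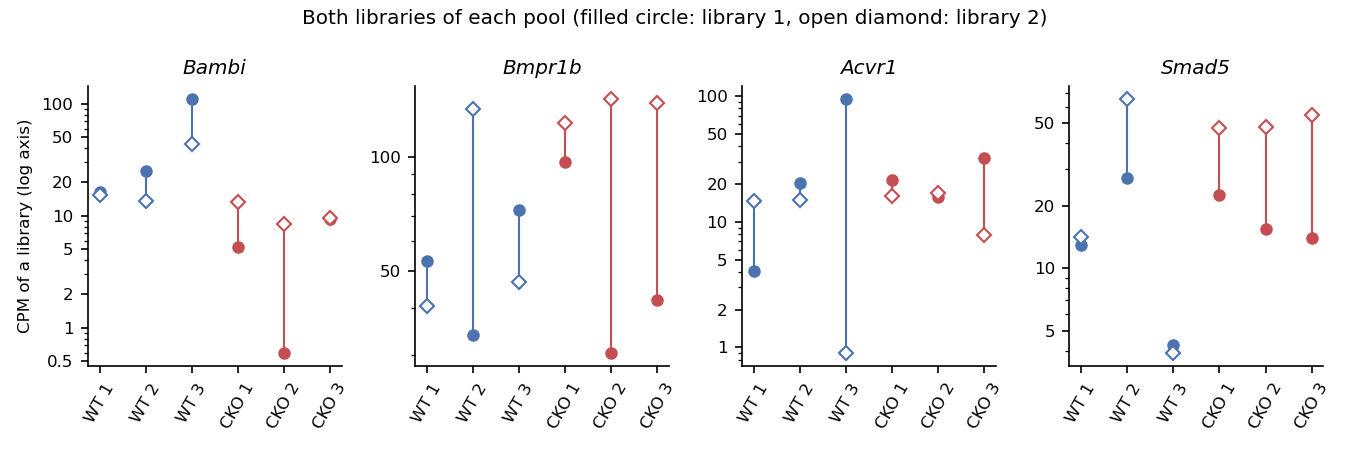
CPM (log axis) of Bambi, Bmpr1b, Acvr1 and Smad5 in library 1 (filled circle) and library 2 (open diamond) of each pool, joined by a line. Acvr1 in WT pool 3 spans 0.897 to 95.6 CPM, and Bambi in the CKO pools lies below the WT pools in each library.

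Other genes of the pathway were read from 6 lists of 60 genes, of which 48 were tested. None passed the edgeR adjusted threshold, and at an unadjusted p under 0.05 there were 4 with higher and 1 with lower values in CKO, where 3.01% and 2.9% of all genes had such a p. The pools were fully separated for 3 of the 48 with higher and 2 with lower values, beside 7.67% and 8.17% of all genes. Of the 48, 28 had a positive log2 fold change, with a median of 0.20, against 10140 of 21477 and -0.06 over all genes.

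Of 13 BMP ligands 6 were tested, 0 had an unadjusted p under 0.05 in edgeR, and 3 had a positive log2 fold change. Over all genes, 5.91% had such a p, and 10140 of 21477 had a positive log2 fold change. Bmp4, a ligand of Bmpr1a and Bmpr1b that shares 89 exon bases with Gm15217 on the other strand, had 52.7, 60.4 and 0.238 CPM in WT and 54.9, 44.5 and 37.5 CPM in CKO pools. WT pool 3 had 9 reads of it, and the other 5 pools were of one order. Bmp2 was the reverse, with 0.712, 1.04 and 26.7 CPM in WT and 2.28, 0.785 and 4.60 CPM in CKO pools. Bmp3, a ligand that opposes BMP signalling, had 1.35, 2.74 and 0.821 CPM in WT and 4.81, 6.55 and 1.48 CPM in CKO pools, which overlapped.

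Of 11 secreted antagonists 7 were tested, and all of these 7 had a positive log2 fold change, with a median of 0.75. An unadjusted p under 0.05 was reached by 2 of them, and both had pools that did not overlap, beside 5.91% and 15.8% of all genes. Over all genes, 10140 of 21477 log2 fold changes were positive. Nog, Chrd, Chrdl1 and Sostdc1, named here after their values were seen, were lowest in WT pool 3, the pool that stood apart. They had 0.318, 0.689, 1.17 and 0.0530 CPM there, and their edgeR unadjusted p-values were 0.843, 0.680, 0.227 and 0.446. Twsg1 was also lowest there, and Nbl1 and Bmper were not. How many of the signs hold without WT pool 3 was not tested for this list. Twsg1, a modulator that binds BMPs together with chordin, had 28.9, 28.7 and 23.3 CPM in WT and 50.2, 44.4 and 41.3 CPM in CKO pools, a log2 fold change of 0.75 with an edgeR p of 0.0286 before adjustment. Nbl1, a BMP antagonist of the DAN family, had 11.8, 12.2 and 21.6 CPM in WT and 28.6, 41.5 and 26.8 CPM in CKO pools, a log2 fold change of 1.09 with an edgeR p of 0.0292 before adjustment.

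Of 12 further receptors and co-receptors 11 were tested, 6 with a positive log2 fold change and a median of 0.07. Over all genes it was 10140 of 21477, with a median of -0.06. An unadjusted p under 0.05 in edgeR was reached by 1 of the 11, beside 5.91% of all genes. Neo1, a co-receptor of repulsive guidance molecules, had 67.0, 54.9 and 47.1 CPM in WT and 104, 65.5 and 104 CPM in CKO pools, which overlapped (log2 fold change 0.69, edgeR unadjusted p = 0.0435). Acvrl1, the type I receptor of endothelium, which shares 127 exon bases with the antisense gene Gm16031, had 211, 8 and 0 reads in WT and 1, 9 and 10 reads in CKO pools and was not tested. The sum of 6 endothelial markers was likewise highest in WT pool 1, at 106 CPM against 0.874 to 33.5 CPM in the others. Cldn5 and Ly6c1 were its largest parts there, with 59.6 and 28.8 CPM. Flt1 alone was not highest there, with 1.66 CPM against 12.2 in WT pool 2 and 10.05 and 10.9 in CKO pools 2 and 3. Pecam1 was almost level between WT pool 1 (4.29 CPM) and CKO pool 3 (4.27 CPM). The part of these markers in the Acvrl1 values was not tested.

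Of 12 regulators of Smads, all tested, 8 had a positive log2 fold change, with a median of 0.25. Over all genes it was 10140 of 21477, with a median of -0.06. An unadjusted p under 0.05 in edgeR was reached by 1 of the 12, beside 5.91% of all genes. The pools were fully separated for 1 with higher and 1 with lower values in CKO, beside 7.67% and 8.17% of all genes. Tob1, which binds Smads and restrains BMP signalling in bone, had 13.7, 23.4 and 32.9 CPM in WT and 46.3, 41.3 and 57.9 CPM in CKO pools without overlap (log2 fold change 1.06, edgeR unadjusted p = 0.0293). Fkbp1a, which binds type I receptors and keeps them inactive without ligand, had 497, 287 and 352 CPM in WT and 260, 261 and 268 CPM in CKO pools. All CKO pools were below all WT pools (log2 fold change -0.53, edgeR unadjusted p = 0.0659). Smad4, the common partner, had 9.55, 9.86 and 38.9 CPM in WT and 16.4, 28.3 and 17.8 CPM in CKO pools, with overlap and a log2 fold change of 0.10.

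Of 9 transcriptional targets, all tested, 2 had a positive log2 fold change, with a median of -0.26. Over all genes it was 10140 of 21477, with a median of -0.06. An unadjusted p under 0.05 in edgeR was reached by 1 of the 9, beside 5.91% of all genes. The pools did not overlap for 1 of the 9, beside 15.8% of all genes. Id4, which shares 82 exon bases with the antisense gene A330033J07Rik, had 72.2, 58.6 and 83.0 CPM in WT and 46.0, 44.3 and 47.2 CPM in CKO pools without overlap, the single target with an unadjusted p under 0.05 in edgeR (0.0337). Id1, the target most used as a readout of BMP activity, had 53.3, 31.4 and 12.5 CPM in WT and 25.5, 12.9 and 33.0 CPM in CKO pools, which overlapped.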

How the data were processed

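The authors deposited read counts per gene symbol for each lane of each library, 24 files in all. Bowtie2, HTSeq and the build GRCm38 are named in the submitters' processing notes. Per the labels, libraries were made with Smart-Seq2 and Nextera XT, which do not mark strand. The 5 summary lines of each file were left out: reads in no feature were 16.0% to 35.3% and unaligned reads 11.2% to 21.7% of the total of a pool. Deposited counts were summed over the lanes and libraries of a pool, which was the replicate, since the lanes and libraries repeat 1 pool. Nothing says that pools came from separate animals, so p-values measure the spread between pools.

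WT and CKO pools, 3 each, were compared over 21477 genes with edgeR 4.0.16 (filterByExpr, TMM, quasi-likelihood F test, genotype alone) in R 4.3.3, with Benjamini-Hochberg adjustment over all of them, threshold 0.05. The SE printed with an edgeR log2 fold change is its absolute value divided by the square root of the F statistic, so it restates that test. DESeq2 1.42.0 was an alternative. Both were also run on simulated counts with the same spread for every gene and no outlying pool. That run does not show how many differences were missed in these data. Pools held 40366579 to 53984963 reads in genes, which limits counting error only, and the common biological coefficient of variation was 0.725. Same-numbered pools did not clearly deviate together (correlations 0.0559, 0.0218 and -0.0280), which with 3 pools per genotype cannot show whether pools were handled in pairs. The sources used here do not say that the numbers pair pools. The main fit therefore had no block, and a block by pool number was an alternative. Exon lengths and gene positions were taken from GENCODE M21 (GRCm38), copies were searched with blastn 2.17.0, and promoters are from RefSeq GRCm38.p6.

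The 10 genes and all lists were chosen with earlier results of these data known. Besides the 10, Notch2, Acvrl1, Smad4 and Id1, the text names from each pathway list the 2 genes with the smallest unadjusted p and the gene with the highest mean CPM, and no further gene unless said. Summed levels of the other marker lists in the pools were 105 to 250 CPM for neuroblasts, 499 to 1566 for oligodendrocyte precursors, 131 to 468 for microglia, 35.3 to 91.9 for pericytes and mural cells, 94.7 to 495 for excitatory neurons, 18.9 to 59.2 for interneurons and 7.53 to 212 for red blood cells.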

Additional observations from a re-analysis of the deposited data

How the results depend on the processing

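Every edgeR setting called 0 of all genes and 0 of the 10 genes: RLE or total-read scaling, no filter on low counts, the replicate block, either library alone, and each pool left out. DESeq2 called 124 genes (0.577%), none of the 10. With the replicate block, edgeR called 0 genes (889 at an unadjusted p under 0.05, against 1269 without it), and the log2 fold changes were -1.89 for Bambi, 0.74 for Bmpr1b and 2.60 for Smad6. The median of all genes was 0.04 with total-read scaling, against -0.06.

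Of 129 alternative values of the 10 genes, 120 kept their sign. With library 2 alone, Bmpr1a was at 0.011, Acvr1 at 0.39 and Smad7 at -0.30, and with library 1 alone Smad9 was at -0.71. Leaving out each pool in turn gave -0.27 to 0.19 for Bmpr1a, 0.58 to 1.01 for Bmpr1b, -0.65 to 0.36 for Acvr1, 0.02 to 1.37 for Bmpr2, -0.40 to 0.093 for Smad1, 0.25 to 2.04 for Smad5, -0.13 to 1.83 for Smad9, 2.42 to 3.82 for Smad6, -0.38 to 1.21 for Smad7 and -2.45 to -1.18 for Bambi. The cause was not tested. Smad6 had too few reads for a test in library 1 alone.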

Other observations

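Smad2 and Smad3, which carry TGF-beta and activin signals beside the BMP branch, went opposite ways in WT pool 3. Smad2 had 14.02, 15.6 and 39.6 CPM in WT and 21.0, 22.5 and 19.99 CPM in CKO pools. Smad3 had 36.5, 18.1 and 3.36 CPM in WT and 35.98, 34.2 and 25.9 CPM in CKO pools. Both overlapped between the genotypes, and in edgeR neither had an unadjusted p under 0.05. Acvr1b, an activin type I receptor, had 13.2, 11.4 and 44.1 CPM in WT and 14.8, 7.42 and 9.32 CPM in CKO pools, with overlap and WT pool 3 again highest. Acvr2a, a type II receptor shared by activins and BMPs and picked after its values were seen, shares 446 exon bases with Orc4 on the other strand and had 16.3, 33.3 and 3.13 CPM in WT and 27.9, 39.7 and 48.8 CPM in CKO pools. It was lowest in WT pool 3, as Bmpr2 was.

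Among the most abundant named genes, Id2 had 693, 733 and 693 CPM in WT and 544, 516 and 706 CPM in CKO pools. Id3 had 270, 200 and 233 CPM in WT and 178, 126 and 224 CPM in CKO pools. For both genes CKO pools 1 and 2 were below every WT pool, and CKO pool 3 was not.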
